A study of Drosophila melanogaster with 24 samples.

Results

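The Samarkand strain of Drosophila melanogaster was compared at the start of metamorphosis: white prepupae, which have just formed the puparium, against larvae late in the third and last instar. All 3 Samarkand prepupa arrays and all 3 Samarkand late larva arrays were taken by their labels, so that 6 of the 24 arrays in the series and all 16637 transcripts on them entered the comparison. Samarkand is a wild-type stock, and no transgene, mutation or drug is named in its labels. Flies of all groups were raised at 25 °C in constant light, with larvae kept uncrowded on medium holding 0.05% bromophenol blue, a dye that colours the larval gut. The larval label carries the number 18, and neither sex nor an age in hours was given in the sources used here. Each array held RNA of 1 biological replicate, per the series' design text, ground from about 120 mg of frozen whole animals (60 to 80 individuals). The other 18 arrays held the same stages of Oregon-R, Canton-S and Zimbabwe-109, all wild-type stocks, with 3 arrays per strain and stage. All were single-colour arrays, and their values are fluorescence intensities, given here as log2 after quantile normalization over the 24 arrays.

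Puparium formation in flies is set off by a pulse of the steroid hormone ecdysone. Late larvae stop feeding, empty the gut, leave the food and live on stores in the fat body, and in the prepupa larval tissues begin to be broken down while imaginal discs form the adult body. A whole-animal array averages over all these tissues. Fewer cells of a type and less RNA per cell therefore cannot be told apart in any change given here.

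Most Samarkand transcripts moved little, and the strong changes were mainly falls. Out of 16637 transcripts, 8451 passed an adjusted p of 0.05 (50.8%), by limma with Benjamini-Hochberg adjustment over all transcripts. Among these, 5158 were higher in prepupae (31.0% of all transcripts) and 3293 lower (19.8%). The order turned around with size. A change of at least 2-fold was found upwards in 176 transcripts (1.06%) and downwards in 668 (4.02%), one of at least 4-fold in 42 and 161, and one of at least 8-fold in 16 and 37. A change of 16-fold was reached by 1 rise and 1 fall. With a normexp background correction, 325 rises and 1042 falls reached 2-fold. Without the Canton-S arrays in the scaling and the fit, 156 rises and 605 falls did. The median change over all transcripts was 0.08 on the log2 scale, and the middle 50% of transcripts lay between -0.13 and 0.24. The tails were uneven: the 1st percentile of the change was -1.99 and the 99th was 1.04. Small differences passed the test, since the median standard error (SE) of a change was 0.08 and the smallest change called was 0.10. Each SE was estimated from the spread within all 8 groups of the series, not from the 6 Samarkand arrays alone. Which direction held more of the small calls rested on the scaling. Higher calls made up 61.0% of all calls here, 54.0% when each array was only centred on its median, and 22.2% (481 higher, 1687 lower) with no scaling.

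The labels divided the 6 arrays cleanly. Correlations over transcripts, given as a description, were 0.991 to 0.996 between larval arrays, 0.976 to 0.992 between prepupal arrays and 0.846 to 0.905 between arrays of different stage. A further check used arrays of other strains: each Samarkand array's deviation from the Samarkand larval mean was regressed on the mean stage change of the other 3 strains. The slope was -0.03, 0.09 and -0.06 for larval replicates 2, 3 and 4, and 1.10, 1.19 and 1.16 for prepupal replicates 1, 2 and 3. Taken from the larval mean, the larval slopes must cancel out, so only their spread and the prepupal slopes are informative. Each array thus lay on the side that its stage label gives it. Median intensities before scaling were 2864 to 2988 in larvae and 2444 to 3169 in prepupae. Prepupae varied more: the median SD of 3 arrays was 0.05 in larvae and 0.08 in prepupae, and the prepupal SD was the larger for 67.7% of transcripts. All 3 arrays of one stage lay above all 3 of the other for 11643 transcripts (70.0%), including 8314 of the 8451 calls.

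One array stood apart in a small set of transcripts. Prepupal replicate 2 read 45 transcripts at least 1 log2 unit above both other prepupal arrays, by up to 3.96. The other 5 Samarkand arrays did so for 3 to 8 transcripts each. No transcript was read that far below both others by any of the 24 arrays. Of the 45, none was shared with such a set of another array, 23 were called higher in prepupae and 6 of these by at least 2-fold. Over all transcripts, 31.0% were called higher and 1.06% by at least 2-fold. Picking transcripts that a prepupal array reads high favours such calls. Without replicate 2, none of those 45 was at least 2-fold higher. The total of such rises was 174 without it, of which 166 were among the 176 found with all arrays. An example, chosen after its values were seen, is FBtr0113465, a transcript with no gene name here. It read 10.02, 9.99 and 9.88 in larvae and 10.004, 13.30 and 10.17 in prepupae. Its change of 1.20 ± 0.49 (SE, n = 3 and 3, adjusted p = 0.0492) rested on replicate 2 (0.13, adjusted p = 0.260 without it), and it was the only call of at least 2-fold whose groups overlapped. The call was also lost without any 1 larval array (adjusted p 0.0850 to 0.112), without Canton-S (0.0801), without the 2 Zimbabwe-109 arrays described next (0.0629), with median centring (0.0528), with normexp (0.0518) and with the Samarkand arrays alone (0.207).

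**Figure D1:**
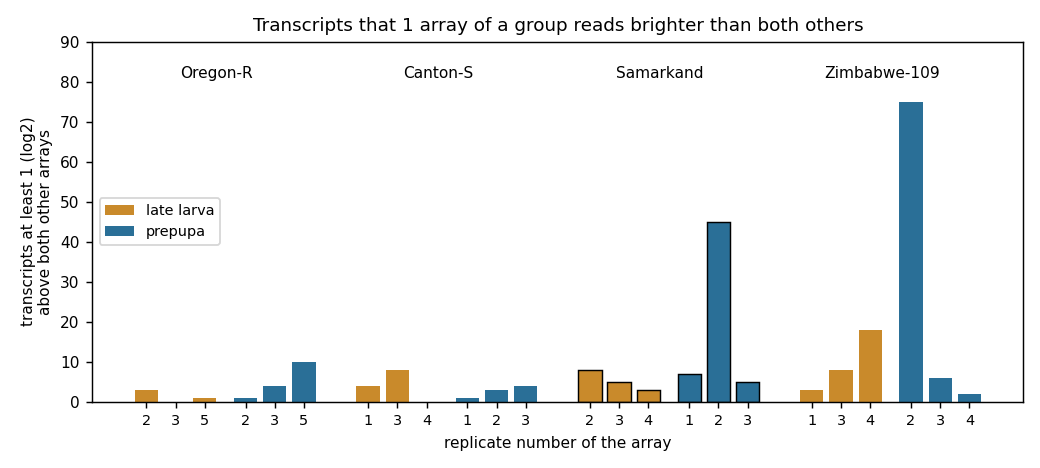
Number of transcripts (vertical axis) that an array reads at least 1 log2 unit above both other arrays of its group, for each of the 24 arrays (horizontal axis, by strain and replicate number; Samarkand bars outlined). Samarkand prepupal replicate 2 has 45 such transcripts against 3 to 8 in the other Samarkand arrays; the highest bar of the series is Zimbabwe-109 prepupal replicate 2, at 75.

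The bar plot of single-array transcripts also places replicate 2 within the series. Zimbabwe-109 prepupal replicate 2 had 75 such transcripts and Zimbabwe-109 larval replicate 4 had 18, while every other array outside Samarkand had at most 10. Of the 75, 66 were called lower in Samarkand prepupae, against 19.8% of all transcripts. Of the 18, 16 were at least 2-fold higher there, against 1.06%. Such readings bring the Zimbabwe-109 stages closer together where its change runs the same way as in Samarkand.

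The strongest changes joined a bright stage to a dim one. Neither the 2 largest rises nor the 2 largest falls could be matched to a gene name here, so their transcript identifiers stand in. FBtr0075740 read 10.33, 10.40 and 10.31 in larvae and 14.73, 14.51 and 14.69 in prepupae. Its 4.30 ± 0.41 (SE, adjusted p = 4.74e-08) was the largest rise of all, 19.7-fold. The SD of FBtr0075740 was 0.05 in Samarkand larvae and 0.12 in Samarkand prepupae. In Zimbabwe-109 larvae, which enter the same SE, it was 1.55. FBtr0076956 read 10.96, 10.93 and 10.90 in larvae and 14.95, 14.79 and 14.82 in prepupae, a rise of 3.93 ± 0.37 (adjusted p = 4.33e-08). The lowest prepupal array stood 4.11 and 3.83 log2 units above the highest larval one. FBtr0089747 went the other way, from 14.51, 14.42 and 14.55 in larvae to 10.65, 10.37 and 10.41 in prepupae, a change of -4.01 ± 0.42 (adjusted p = 2.02e-07). FBtr0073938 read 13.64, 13.84 and 13.59 in larvae and 9.80, 9.78 and 9.87 in prepupae, a change of -3.87 ± 0.42 (adjusted p = 2.70e-07). Both falls were as clear, with gaps of 3.76 and 3.72 between the stages. The test against the mean of the other strains was not passed by any of these 4 (adjusted p 0.713 to 0.886), whose changes elsewhere ranged from 2.81 to 4.54 for the rises and from -3.92 to -3.13 for the falls. The Zimbabwe-109 values among these rest in part on 2 arrays: larval replicate 4 read FBtr0075740 at 13.07 and FBtr0076956 at 13.57, against at most 10.43 and 11.27 in the other larvae. Prepupal replicate 2 read FBtr0089747 at 13.05 and FBtr0073938 at 12.56, against at most 10.42 and 9.88 in the other prepupae. Without these 2 arrays FBtr0073938 did differ from the mean of the other strains (-0.39, adjusted p = 0.0230).

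A gene name could be given to 16 transcripts. In Samarkand, 4 of them rose, 4 fell and 8 did not pass the test, a share of 50% called against 50.8% of all transcripts. Their median change was -0.08, against 0.08 over all transcripts. Groups did not overlap in 11 of the 16, near the share of 70.0% over all transcripts. These shares lie near the background and show nothing particular to the 16. With no scaling between arrays, Fatp1 alone of the 8 kept its call, and sle turned from 0.19 to -0.035; with median centring, rdx and sle lost theirs.

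**Figure D2:**
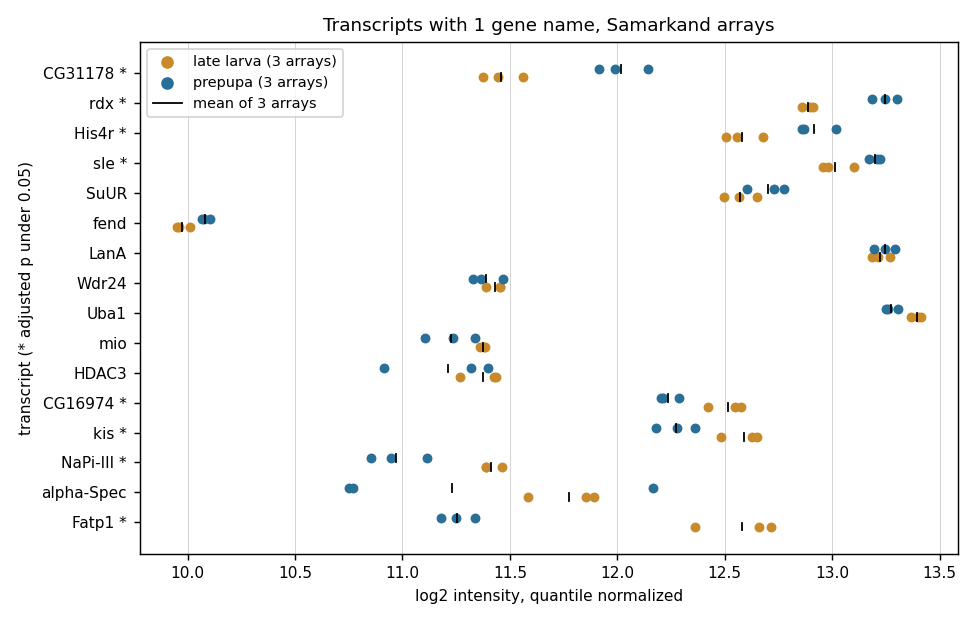
Log2 intensity (horizontal axis, quantile normalized) of the 16 transcripts with 1 gene name in the 3 late larva and 3 prepupa arrays of Samarkand, with the mean of each group as a tick; an asterisk marks an adjusted p under 0.05. Fatp1 shows the widest gap between stages, and alpha-Spec has 1 prepupal array above all larval arrays and 2 below them.

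The widest named gap between stages was that of Fatp1. This transcript of a fatty acid transport protein, the only named member of the lipid list, read 12.66, 12.36 and 12.72 in larvae and 11.34, 11.18 and 11.25 in prepupae. The lowest larval array stood 1.02 log2 units above the highest prepupal one. The change was -1.32 ± 0.13 (SE, n = 3 and 3, adjusted p = 8.01e-08), a level 2.50 times as high in larvae, and Fatp1 was the only named transcript to reach 2-fold. NaPi-III, a sodium-dependent phosphate transporter, read 11.46, 11.39 and 11.39 in larvae and 11.11, 10.85 and 10.95 in prepupae. Its groups were also apart, and it fell by 0.44 ± 0.12 (adjusted p = 0.00560). In the dot plot of named transcripts, Fatp1 stands apart from the other rows, while the gap of NaPi-III (0.28) is close to that of rdx (0.27).

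Of 4 named members of the chromatin list, 1 rose, 1 fell and 2 did not pass, which is 50% called against 50.8% of all transcripts. His4r, a histone H4 made outside the replication-linked histone cluster, read 12.51, 12.68 and 12.56 in larvae and 13.02, 12.87 and 12.86 in prepupae, a rise of 0.33 ± 0.08 (adjusted p = 0.00129). The chromatin remodeller kis read 12.63, 12.48 and 12.65 in larvae and 12.36, 12.28 and 12.18 in prepupae, a change of -0.31 ± 0.12 (adjusted p = 0.0407). Both had stages that did not overlap, by 0.18 and 0.12 log2 units. SuUR, which holds back replication in polytene chromosomes, gave 0.13 ± 0.08 (adjusted p = 0.159), and the histone deacetylase HDAC3 gave -0.17 ± 0.12 (adjusted p = 0.268), both with overlapping groups.

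In the ubiquitin list, 1 of 2 named members rose, against 31.0% of all transcripts called higher, too few members to read a share from. The transcript of rdx, a substrate adaptor of a Cul3 ubiquitin ligase, read 12.86, 12.91 and 12.90 in larvae and 13.25, 13.19 and 13.30 in prepupae, a rise of 0.36 ± 0.07 (adjusted p = 0.000239). The ubiquitin-activating enzyme Uba1 read 13.41, 13.37 and 13.40 in larvae and 13.31, 13.25 and 13.26 in prepupae. Its stages were apart by 0.06, yet the change of -0.12 ± 0.08 did not pass (adjusted p = 0.214). It did pass with median centring (-0.32, adjusted p = 0.00777) and with the Samarkand arrays alone. Uba1 is one of 3329 transcripts with separate groups and no call.

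The largest named rise was that of CG31178, a gene with no role given here. It read 11.37, 11.56 and 11.45 in larvae and 11.91, 12.14 and 11.99 in prepupae, a rise of 0.56 ± 0.07 (adjusted p = 8.50e-07). That is 1.47-fold, and its change stood at percentile 95.7 of all transcripts. The nucleolar protein sle read 12.98, 13.10 and 12.96 in larvae and 13.17, 13.21 and 13.22 in prepupae, a rise of 0.19 ± 0.07 (adjusted p = 0.0236). CG16974 read 12.55, 12.42 and 12.57 in larvae and 12.29, 12.21 and 12.20 in prepupae, and fell by 0.28 ± 0.10 (adjusted p = 0.0327). The calls of sle, CG16974 and kis were narrow. Each was lost when larval replicate 2 or 4 or prepupal replicate 2 or 3 was left out, with adjusted p of up to 0.0978, 0.104 and 0.133.

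The list of the membrane skeleton and basement membrane had 2 named members, and neither passed, against 50.8% of all transcripts called. For alpha-Spec, which encodes alpha spectrin, the arrays read 11.85, 11.59 and 11.89 in larvae and 12.17, 10.75 and 10.77 in prepupae. Prepupal replicate 1 was above every larval array, and replicates 2 and 3 were below every one. With all arrays the change was -0.55 ± 0.24 (adjusted p = 0.0616), and without replicate 1 it was -1.02 (adjusted p = 2.65e-06). It also passed with median centring (adjusted p = 0.0483) and with a normexp background correction (-0.86, adjusted p = 0.0489). The prepupal SD of alpha-Spec was 0.81, against a median of 0.08 over all transcripts. LanA, a laminin chain of basement membranes, gave 0.02 ± 0.06 (adjusted p = 0.754), between 13.19 and 13.29 in every array.

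In the nutrient list, mio and Wdr24 are subunits of the same complex, which acts on TOR signalling at the lysosome. Neither passed the test. mio read 11.38, 11.38 and 11.36 in larvae and 11.34, 11.11 and 11.24 in prepupae, a change of -0.15 ± 0.07 (adjusted p = 0.0778; 0.0286 without prepupal replicate 1). Wdr24 gave -0.04 ± 0.06 (adjusted p = 0.547) with overlapping groups. The dimmest named transcript, fend, stood at 9.95 to 10.01 in larvae and 10.06 to 10.10 in prepupae, and its 0.11 ± 0.10 did not pass (adjusted p = 0.377).

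A further 28 transcripts carry reading frames of several genes, 26 of them of 2 genes. They were taken up after their values were seen, and their intensity cannot be assigned to either gene. Of the 28, 5 rose, 6 fell and 17 did not pass, a share of 39.3% called against 50.8% of all. The transcript with the frames of CG33995, CG44000 and CG44001 rose from 12.54, 12.55 and 12.59 to 13.42, 13.34 and 13.42, by 0.84 ± 0.11 (adjusted p = 3.69e-06). That with the frames of CG45089 and ND-MNLL, a subunit of mitochondrial complex I, read 11.13, 11.09 and 11.42 in larvae and 10.31, 10.51 and 10.40 in prepupae, a change of -0.80 ± 0.10 (adjusted p = 3.09e-06). The transcript of CG45085 and CG8026 changed by -0.56 ± 0.09 (adjusted p = 5.68e-05). In each of these 3 the stages were apart. Smaller rises were found in the transcripts of CG42516 with Pbp49, a subunit of a factor that drives small nuclear RNA genes, at 0.24 ± 0.05, and of PIG-P with Tcs6, at 0.23 ± 0.06. Among those that did not pass were Rad1 with Sws1 (0.09 ± 0.07), the mevalonate kinase Mvk with CG33672 (0.09 ± 0.05) and the mitochondrial chaperone Tim10 with CG42497 (-0.14 ± 0.06).

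Brighter transcripts were called more often. Transcripts were put into 10 equal bins by their mean log2 level in the 18 arrays of the other strains. These arrays enter the Samarkand change only through the shared scaling, and its test through the shared spread as well. From the dimmest to the brightest bin, the share called higher went from 16.4% to 48.1%, and the share called lower from 14.3% to 24.5%. Calls of at least 2-fold upwards made up 0.180% of the dimmest and 4.09% of the brightest bin, and those downwards 1.14% and 7.21%. The median SE did not shrink with brightness, at 0.08 in the dimmest and 0.09 in the brightest bin, while the SD of the change over transcripts went from 0.30 to 0.76. At least 2-fold falls outnumbered such rises in each of the 10 bins. This is a description over transcripts, with no test.

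**Figure D3:**
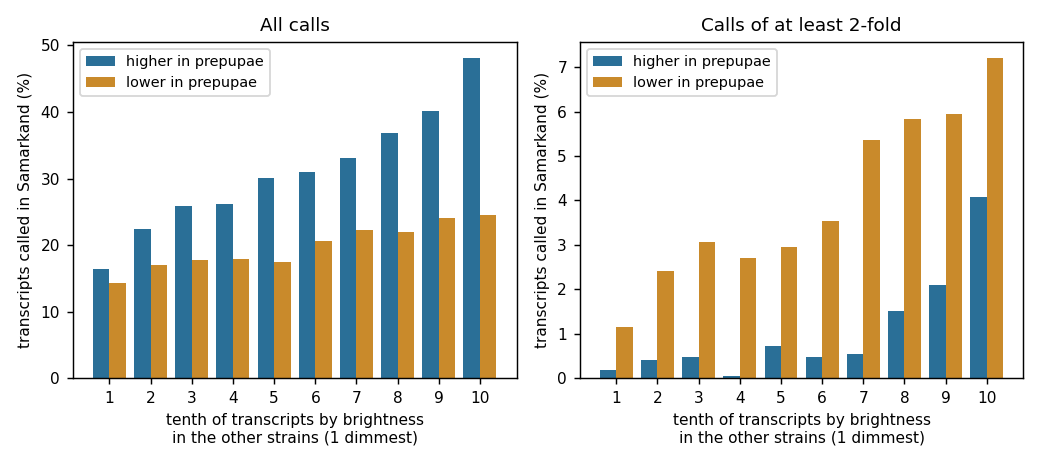
Percent of transcripts called higher or lower in Samarkand prepupae (vertical axis), all calls on the left and calls of at least 2-fold on the right, in 10 bins of transcripts ordered by brightness in the other strains (horizontal axis, 1 dimmest). The bars are tallest in the brightest bin, and on the right falls exceed rises in every bin.

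The bar plot by brightness makes the turn in direction visible: rises are the taller bars among all calls and falls among those of at least 2-fold. With no scaling there was no such turn, since falls outnumbered rises among all calls too (481 higher, 1687 lower).

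The next question was how far the Samarkand change differed from that of the other strains. RNA of different strains was extracted separately, per the labels' protocols, so strain and extraction cannot be told apart. The stage change in Samarkand minus the mean of the other 3 passed the test for 366 transcripts (2.20%), of which 146 lay above 0 (0.878%) and 220 below (1.32%). Among those 366, Samarkand moved further in the same direction in 232, less far in 71 and with the opposite sign in 63. Differences of at least 1 log2 unit were found above 0 in 10 (0.0601%) and below 0 in 21 (0.126%). Over all transcripts Samarkand also moved further in the same direction more often (10924 of 16637), with a slope of 1.15 on the mean of the others. A mean over 3 strains evens out their differences, which favours a larger change in any single strain set against it. This did not hold against each strain: the slope was 1.13 on Oregon-R and 1.23 on Zimbabwe-109 but 0.80 on Canton-S, where changes were more widely spread (SD 0.58 over transcripts, 0.50 in Samarkand). The test itself picks transcripts whose distance between Samarkand and the other strains differs between stages, so such a difference is given by the choice. As a description, the Samarkand larval level was the further away in 222 of the 366 and its prepupal level in 144. The median distances were 0.36 in larvae and 0.20 in prepupae. Over all transcripts the larval level was the further away in 7501 and the prepupal level in 9136, with median distances of 0.10 and 0.11. The count of 366 depended on single arrays, on scaling and on the strains compared. It was 199, 193 and 214 without larval replicate 2, larval replicate 4 and prepupal replicate 3, 190 with median centring, 27 with no scaling, and 976 when Canton-S was left out.

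**Figure D4:**
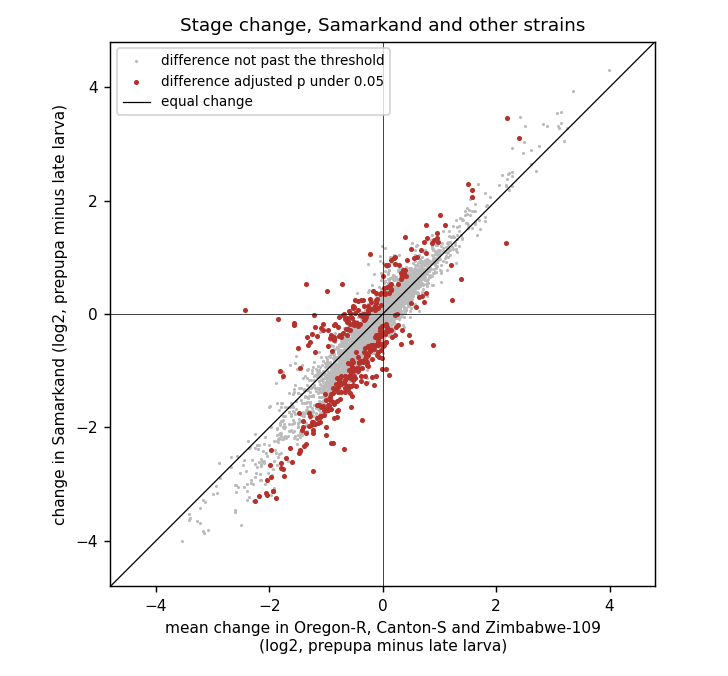
Stage change in Samarkand (vertical axis) against the mean stage change of Oregon-R, Canton-S and Zimbabwe-109 (horizontal axis), both as log2 of prepupa minus late larva, 1 point per transcript. Red points are the 366 transcripts whose difference has an adjusted p under 0.05. Samarkand moved further than the mean of the others in the same direction for 232 of these 366, and for 10924 of all 16637 transcripts. Setting a single strain against a mean of several favours such counts.

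In the scatter of Samarkand against the other strains, most points follow the line of equal change, and a few red points lie near 0 on one axis only. Set against 1 strain at a time, the difference passed for 1495 transcripts with Oregon-R (8.99%), 1104 with Canton-S (6.64%) and 482 with Zimbabwe-109 (2.90%). Against Oregon-R, 466 differences lay above 0 (2.80%) and 1029 below (6.19%). Canton-S gave the opposite balance, with 693 above (4.17%) and 411 below (2.47%), and Zimbabwe-109 gave 179 above (1.08%) and 303 below (1.82%). These 3 tests share the Samarkand arrays. The order of the strains rested in part on the scaling. Median centring gave 1037, 2209 and 356, which puts Canton-S above Oregon-R. No scaling kept the order, with lower counts of 235, 205 and 45. Without larval replicate 4 the Oregon-R count was 899 and the Zimbabwe-109 count 315, without larval replicate 2 the Oregon-R count was 920, and without larval replicate 3 the Canton-S count was 694.

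Most large Samarkand changes were also called in the same direction elsewhere, though not always at 2-fold. Of the 176 rises of at least 2-fold, 155 were also called higher in Oregon-R, 169 in Canton-S and 168 in Zimbabwe-109, against 7.72%, 33.6% and 16.3% of all transcripts called higher there. Of the 668 falls, 535, 655 and 648 were called lower, against 9.00%, 23.2% and 13.3%. Calls of at least 2-fold there numbered 103, 149 and 93 for the rises and 250, 579 and 342 for the falls. Over all transcripts, 2.54%, 6.91% and 2.96% had such a call in the direction of their Samarkand change. The median change of the 668 was -1.45 in Samarkand, -0.77 in Oregon-R, -1.61 in Canton-S and -1.01 in Zimbabwe-109. Because these transcripts were picked for large Samarkand values, smaller medians and fewer 2-fold calls elsewhere are favoured by the choice. The Canton-S median was nonetheless further from 0. The Zimbabwe-109 figures here include the 2 arrays of that strain that stood apart. Only 4 of the 176 rises were not called higher in any other strain, and 3 of the 668 falls not called lower. The difference from the mean of the others passed for 0 of those 4 by limma (1 at an unadjusted p under 0.05) and for 2 of those 3. Picking transcripts called in Samarkand alone favours such a difference. Among those 4 is FBtr0113465, whose rise rested on prepupal replicate 2. In the other direction, 78 transcripts rose (0.469%) and 211 fell (1.27%) at least 2-fold in each other strain, and all but 1 and 11 of them did so in Samarkand.

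None of the 16 named transcripts passed the test of the Samarkand change minus the mean of the others by limma, and 1 had an unadjusted p under 0.05, against 10.7% of all transcripts. The differences ran from -0.35 for Fatp1 (adjusted p = 0.373) to 0.15 for alpha-Spec (adjusted p = 0.896). Fatp1 changed by -0.76 in Oregon-R, -1.30 in Canton-S and -0.86 in Zimbabwe-109, beside -1.32 in Samarkand. Its larval means were 12.58 ± 0.19 in Samarkand (SD, n = 3), 11.95 in Oregon-R, 12.86 in Canton-S and 12.13 in Zimbabwe-109. Its prepupal means lay closer together, from 11.19 to 11.56. CG31178 was the one named transcript that differed from a single strain: its rise exceeded that in Oregon-R (0.16) by 0.40 (adjusted p = 0.00890).

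Some transcripts differed widely between strains; the next 4 were chosen after their values were seen. FBtr0072090 had no stage change in Samarkand that passed the test. It read 10.22, 10.12 and 10.15 in larvae and 10.18, 10.33 and 10.21 in prepupae, a change of 0.08 ± 0.26 (adjusted p = 0.819). These Samarkand levels lie in the range of bin 2 of the 10 brightness bins, near the dim end (10.10 to 10.56). Steady low expression and no expression were not told apart there. Larval means elsewhere were 12.50 in Oregon-R, 13.29 in Canton-S and 13.09 in Zimbabwe-109, and the changes there were -2.18, -2.71 and -2.38. Samarkand larvae thus read this transcript at about the level of prepupae, and the difference in change was 2.50 ± 0.30 (adjusted p = 5.09e-05). Among the 211 transcripts at least 2-fold lower in each other strain, its Samarkand change was the highest.

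FBtr0074361 showed the reverse. It read 11.74, 11.58 and 11.90 in Samarkand larvae and 9.34, 9.38 and 9.36 in prepupae, and fell by 2.38 ± 0.07 (adjusted p = 1.66e-14). In Canton-S it also fell by 1.91 from a larval mean of 11.35. Oregon-R and Zimbabwe-109 gave -0.16 and 0.01, with larval means of 9.56 and 9.48, and no change that passed. These levels and the prepupal means of all strains lie in the range of the dimmest of the 10 bins (7.68 to 10.10). Steady low expression and no expression were not told apart there. The Samarkand change was beyond the mean of the others by -1.69 ± 0.08 (adjusted p = 3.11e-10), and it exceeded that of Canton-S too (adjusted p = 0.00732).

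The transcript with the frames of CG17325 and CG42305 read 12.28, 12.21 and 12.09 in Samarkand larvae and 11.26, 11.08 and 11.20 in prepupae, a change of -1.01 ± 0.06 (adjusted p = 3.71e-11). It fell further in Oregon-R (-2.37) and Canton-S (-2.41) and less far in Zimbabwe-109 (-0.65). The Samarkand change stood above the mean of the others by 0.80 ± 0.07 (adjusted p = 5.99e-07), and the difference from each single strain passed as well, with adjusted p of 4.39e-09, 1.31e-09 and 0.0147. With no scaling the difference from the mean was 0.89 and missed the threshold (adjusted p = 0.0543). Prepupal means were close in all 4 strains, from 11.03 to 11.18. Larval means ordered the strains: 11.81 in Zimbabwe-109, 12.19 in Samarkand, 13.40 in Oregon-R and 13.51 in Canton-S.

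FBtr0089845 fell in Samarkand from 13.90, 14.11 and 13.93 to 12.72, 12.99 and 13.01, by 1.07 ± 0.20 (adjusted p = 0.000181). The other strains gave 0.23, 0.12 and -0.05, none past the threshold. The difference from their mean was -1.18 ± 0.23 (adjusted p = 0.00564), and that from Zimbabwe-109 alone was not called (adjusted p = 0.0504). Samarkand larvae read 1.34 above the mean larvae of the others and its prepupae 0.17 above their prepupae.

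**Figure D5:**
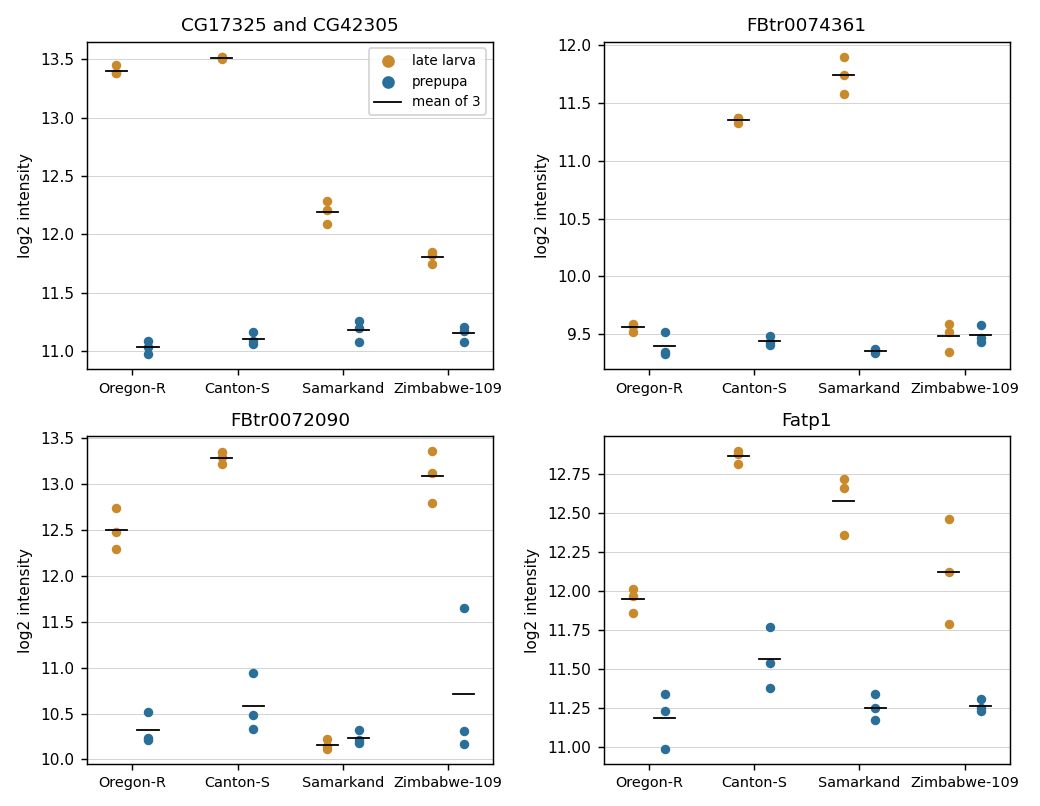
Log2 intensity (vertical axis) of 4 transcripts in late larvae and prepupae of the 4 strains (horizontal axis), 3 arrays per group as points with the mean as a line; the vertical axes differ in range. Samarkand larvae read FBtr0072090 at the prepupal level, FBtr0074361 far above Oregon-R and Zimbabwe-109, and CG17325 and CG42305 between the other strains.

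In the dot plots by strain, the group means span less in prepupae than in larvae for each of the 4 transcripts drawn. Prepupal replicate 2 of Zimbabwe-109 read FBtr0072090 at 11.65, against 10.17 and 10.31 in the other prepupal arrays of that strain. In the count of single-array transcripts, Zimbabwe-109 prepupal replicate 2 and larval replicate 4 stood apart from their groups. With these 2 arrays left out, a setting added after the data were seen, 378 transcripts passed the test of Samarkand against the mean of the others, and the difference of FBtr0072090 was 2.72 (adjusted p = 1.54e-08).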

How the data were processed

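The authors deposited 1 table of array intensity values on a linear scale, with 16637 transcript identifiers and 24 columns, 1 per sample. RMA is named per the submitters' processing notes, with no version given in the sources used here. Medians differed between arrays, so log2 values were quantile normalized over the 24 arrays with limma 3.58.1 in R 4.3.3, with no filter. A model with 1 mean for each of 8 groups (16 residual degrees of freedom) gave the contrasts, two-sided, with Benjamini-Hochberg adjustment over all transcripts and a threshold of 0.05. The fit was tested on simulated data. Arrays give no read depth, and their number limits the precision.

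The members and gene lists were chosen with earlier results of these data known. Names came from a RefSeq gene table of assembly Release 6 plus ISO1 MT, which lists 44 of the identifiers, 16 with 1 gene. By rule, all 16 were reported, called or not, along with the 2 strongest rises and falls without a name whose groups do not overlap. For rdx, Fatp1, SuUR, HDAC3, fend, NaPi-III, CG31178 and CG16974 the table names only a reading frame after the transcript, and a further gene on it was not looked for. Of 14 gene lists, 9 had no named member, so that the salivary glue, ecdysone and cuticle genes were not read here. The rest had 1 to 4. Replicate numbers came from sample titles. Samarkand stages share numbers 2 and 3, whose deviations from the group means correlated at -0.15 and 0.21, so they were not used as pairs. Alternatives were other scalings, a normexp background (offset 50), filters on dim transcripts, an intensity trend, fewer strains or arrays, and a replicate block.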

Additional observations from a re-analysis of the deposited data

Results flagged for a closer look

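In 4 of the transcripts given by name or identifier, the stage change in Samarkand differed from the mean change of the other 3 strains by the test of that difference. The difference was 2.50 on the log2 scale for FBtr0072090, -1.69 for FBtr0074361, -1.18 for FBtr0089845 and 0.80 for the transcript with the frames of CG17325 and CG42305. All 4 were chosen after their values were seen. With 3 arrays in each group, no test for a single array far from its group was made.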

How the results depend on the processing

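Arrays give no depth, and signal over background is unknown. The counts below moved, and the cause was not tested. Median centring gave 190 differences from the mean of the other strains and 2209 from Canton-S. No scaling gave 2168 calls (481 higher, 1687 lower), 27 differences from the mean of the others, 235 from Oregon-R, 205 from Canton-S and 45 from Zimbabwe-109, 9.13% at least 2-fold falls in the brightest of 10 bins and a median prepupal SD of 0.193. It also moved the median change of all transcripts from 0.08 to -0.01, and normexp moved it to 0.12. Normexp gave 325 rises and 1042 falls of at least 2-fold, and 94.1% (96.3% otherwise) of such falls lay below 0 in every other strain. Without the dimmest 30% of transcripts 713 differed from Canton-S. Without the dimmest 50%, with fewer transcripts tested, calls were 5187 (3261 higher, 1926 lower), and 475 differed from Canton-S. Without Canton-S, 976 differed from the mean of the others. The fixed replicate block, whose numbers do not pair the samples, gave 3331 higher calls, 131 differences from the mean of the others, 566 from Oregon-R, 398 from Canton-S and 235 from Zimbabwe-109. The Samarkand arrays alone with the replicate block gave 8863 calls.

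With 1 Samarkand array left out, calls ranged from 6183 to 8130 (higher 3454 to 4934, lower 2729 to 3197), rises of at least 2-fold from 170 to 201 and falls from 621 to 742. Differences ranged from 193 to 462 against the mean of the others, 899 to 1755 against Oregon-R, 694 to 980 against Canton-S and 315 to 604 against Zimbabwe-109.

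Among the transcripts given, the sign of the stage change turned in LanA (-0.16 with median centring, -0.23 with no scaling, -0.0025 to 0.048 with 1 array left out), and with no scaling sle (-0.035), SuUR (-0.015) and FBtr0072090 (-0.0092). The difference of FBtr0075740 from the other strains was -0.037 with no scaling and -0.0030 without the 2 Zimbabwe-109 arrays that stood apart, a setting added after the data were seen. Among named calls, Fatp1 passed under every setting tried. The calls of CG31178, rdx, His4r, CG16974, kis and NaPi-III were lost with no scaling (adjusted p 0.0752 to 0.765), and those of rdx (0.0568) and sle (0.748) with median centring. The calls of His4r, sle, CG16974 and kis were lost with the fixed block (0.0737 to 0.165). alpha-Spec passed with median centring (0.0483), normexp (0.0489) and the fixed block (0.000611). Uba1 passed with median centring (-0.32, 0.00777) and with the Samarkand arrays alone (0.0305). FBtr0089845 did not differ from the other strains past the threshold under the fixed block (-0.96, adjusted p = 0.161), nor did the transcript of CG17325 and CG42305 with no scaling (0.0543). Without the 2 Zimbabwe-109 arrays, FBtr0073938 did differ from the other strains (-0.39, adjusted p = 0.0230).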
